A study of Mus musculus with 12 samples.

Results

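Complement and coagulation factors are the plasma proteins, inhibitors and cell-surface regulators that tag and lyse foreign cells and that form, limit and dissolve blood clots. The genes were chosen by name: 42 genes of the 2 systems were listed, and 40 of them were measured by 52 probe sets, out of 12393 genes measured on the array. C3 and Cpb2 matched no probe set with a single gene symbol and were not analysed here. Each gene was represented by its brightest probe set, and 34 of the 40 genes had only 1.

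The 4 groups of 3 arrays were all from livers of male C57BL/6N mice aged 12 weeks. They were mesenchymal cells and hepatocytes from mice given phenobarbital in the drinking water (50 mg/kg a day for 14 days), and the same 2 cell populations from mice given tap water, the vehicle. Phenobarbital is a barbiturate that induces hepatic drug metabolism. The labels do not say whether an array held 1 animal or a pool, so a p-value speaks only for the spread among these arrays.

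Most plasma complement and clotting factors are known as secreted products of hepatocytes. Macrophages are known for making complement C1q and properdin, and endothelial cells for factor VIII, von Willebrand factor, thrombomodulin and tissue factor pathway inhibitor. In both systems a recognition or contact step starts a chain of proteases, each cleaving the next, and dedicated inhibitors stop the chain on healthy cells and vessel walls.

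The labels were first set against marker genes. Cyp2b10, the classical phenobarbital-induced gene of hepatocytes, had log2 levels of 13.06, 14.15 and 12.87 in hepatocytes of phenobarbital mice, against 7.80, 8.01 and 7.72 in hepatocytes of vehicle mice. In vehicle mice all 11 measured markers of Kupffer cells and macrophages and all 12 of sinusoidal endothelium were higher in the mesenchymal population, and all 18 hepatocyte markers were lower. Of the 11 measured markers of stellate cells and fibroblasts, 7 were tested and 6 were higher. Markers of other cells were also higher: 5 of 5 for dendritic cells, 5 of 6 for T and NK cells, and 2 of 2 tested for neutrophils. Of tested platelet markers 1 was higher and 3 lower, and of cholangiocyte markers 1 was higher and 1 lower. The population labelled mesenchymal therefore held macrophage and endothelial RNA, with markers of other immune cells also higher, and it is called by its label here. Each value is a mixture over the cells of an array, so a difference in cell number and a difference in RNA per cell cannot be told apart.

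All levels below are log2 values after RMA normalization, and a difference of 1 is a doubling. Levels are compared between groups for one gene at a time, since the brightness of different probe sets cannot be compared. Genes entered the tests when at least 3 arrays of the fit exceeded the 40th percentile of their array, a level of 6.54 to 6.68 that is called the filter level. They passed at an adjusted p under 0.05 in limma, a linear model fitted over all genes.

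Complement and coagulation genes were divided between the populations. In vehicle mice 39 were tested and all passed: 11 were higher in mesenchymal cells and 28 were lower. Over all genes tested 42.0% were higher and 40.7% lower, so 82.7% passed in one direction or the other. The vehicle counts by role given below stand beside these same shares. The median difference of the 40 measured genes was -4.41, against 0.02 for all genes tested. In phenobarbital mice the count was again 11 higher and 28 lower, with a median of -4.10, where 42.2% of all genes were higher and 40.9% lower (83.1% either way). In all 39 tested genes the mesenchymal and hepatocyte arrays did not overlap under either treatment, against 85.7% of all genes tested in phenobarbital mice and 84.4% in vehicle mice. Among the 28 lower genes, 2 exceeded the filter level in no mesenchymal array and 8 in 1 to 5. Among the 11 higher genes, 3 exceeded it in no hepatocyte array and 3 in 1 to 5. Such genes entered the tests mainly or only through the population where they were high. Their passing and lack of overlap follow in part from that entry and give no separate support.

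**Figure D1:**
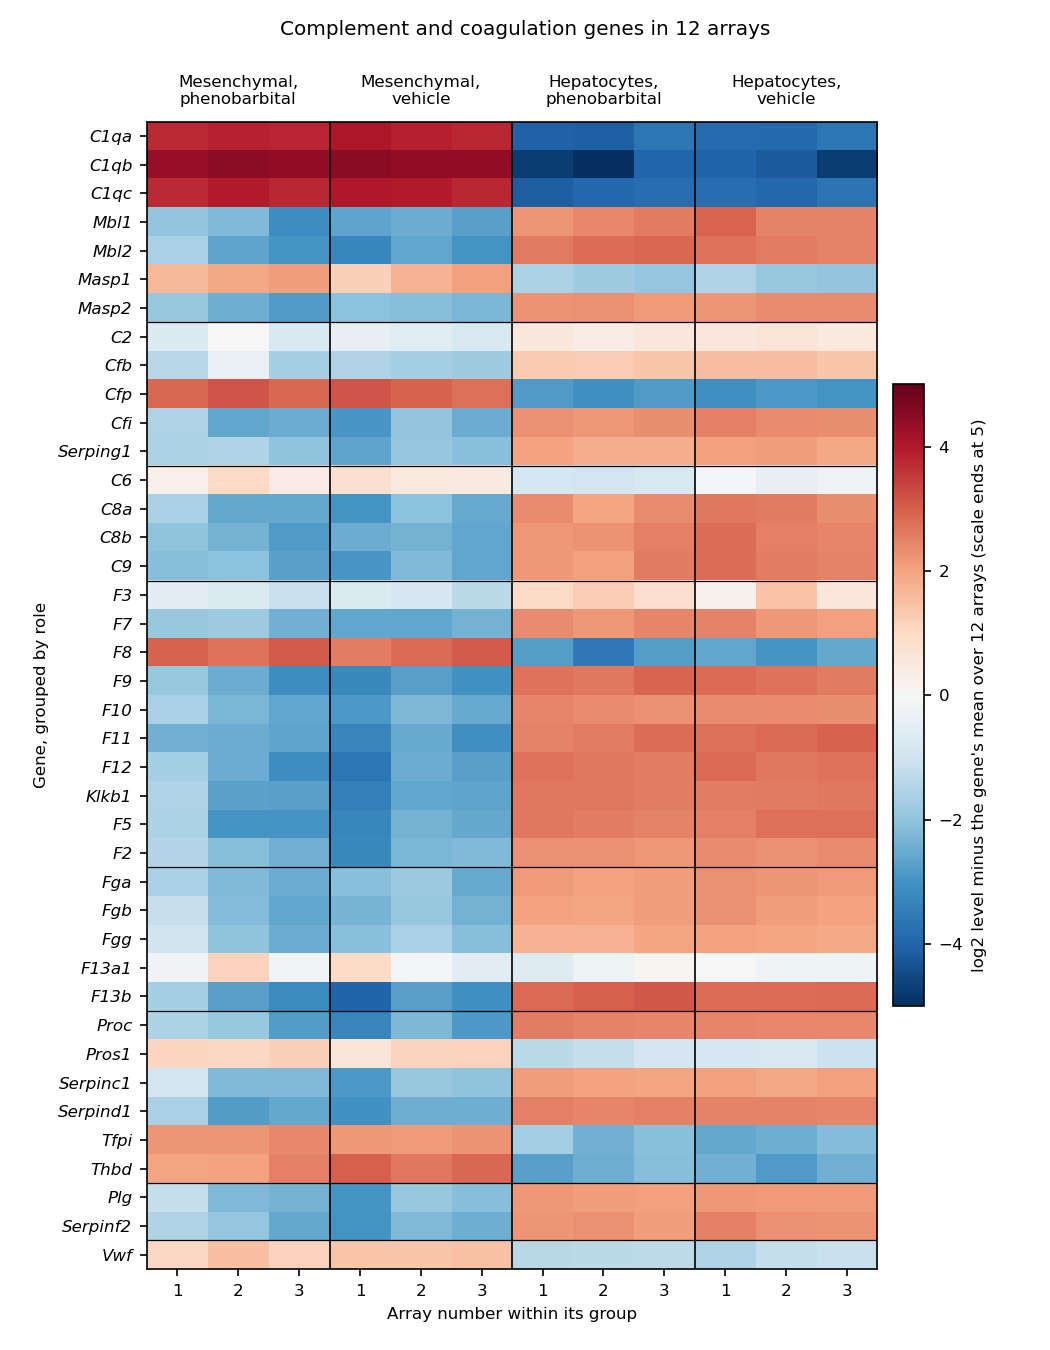
Levels of the 40 measured genes in all 12 arrays, with rows grouped by role and columns by group. The colour is the log2 level minus the mean of that gene over the 12 arrays. Most rows are blue in the 6 mesenchymal arrays and red in the 6 hepatocyte arrays, and 11 tested rows run the other way.

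**Figure D2:**
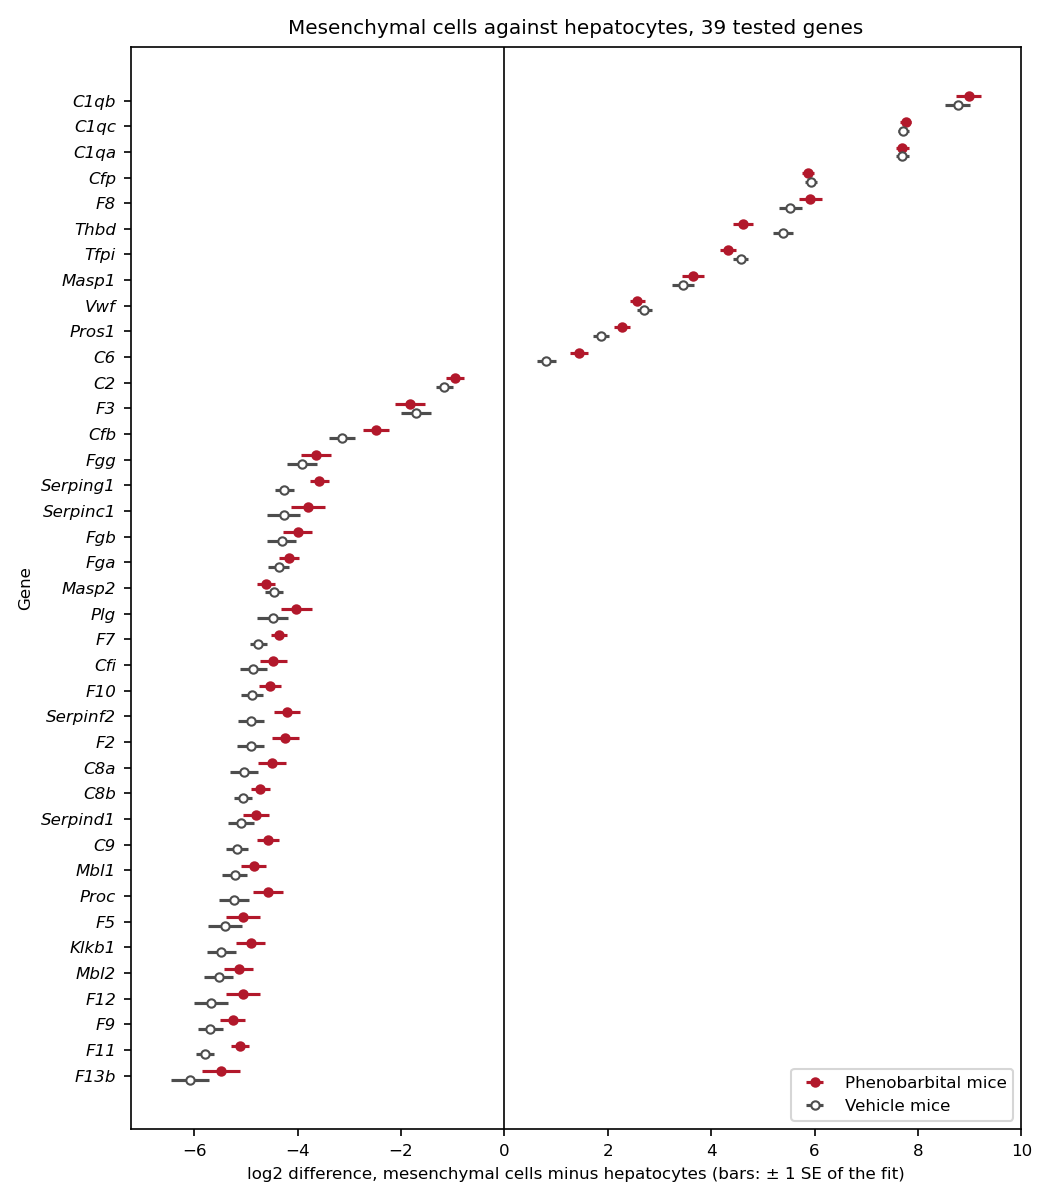
The log2 difference of mesenchymal cells minus hepatocytes on the horizontal axis for the 39 tested genes, in phenobarbital mice (filled) and vehicle mice (open), with bars of 1 standard error. C1qb lies furthest right at 8.98 in phenobarbital mice and 8.77 in vehicle mice, and F13b furthest left at -5.48 in phenobarbital mice and -6.08 in vehicle mice, with 2 of its 6 mesenchymal arrays above the filter level.

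The recognition molecules of complement and the lectin proteases fell on both sides, with 4 higher and 3 lower among 7. One of the 4 is Masp1, whose probe sets disagree in direction. C1qa, C1qb and C1qc encode the 3 chains of C1q, which binds antibody and starts the classical pathway. C1qa had levels of 14.51, 14.37 and 14.24 in mesenchymal cells of vehicle mice, against 6.60, 6.57 and 6.86 in hepatocytes. C1qb had 14.68, 14.59 and 14.59 in mesenchymal cells, against 6.15, 5.99 and 5.40 in hepatocytes. C1qc had 14.32, 14.29 and 14.08 in mesenchymal cells, against 6.51, 6.37 and 6.66 in hepatocytes. All 3 chains were near the top of the measured range (2.79 to 15.16) in every mesenchymal array and close to or under the filter level in hepatocytes. C1qb exceeded that level in no hepatocyte array, so its passing gives no separate support. The differences were 7.70 (SE 0.13) for C1qa, 8.77 (SE 0.24) for C1qb and 7.72 (SE 0.11) for C1qc, with adjusted p of 3.84e-12, 6.57e-11 and 2.4e-12 in limma. In phenobarbital mice they were 7.70, 8.98 and 7.76.

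C1qb, C1qc and C1qa lie next to each other on chromosome 4 in the RefSeq gene order. The promoters of C1qb and C1qc are shown because these neighbours were both far higher in mesenchymal cells, although their low hepatocyte levels leave the exact size uncertain. They are 250 bases before to 50 after the start on the gene's own strand, from RefSeq (GRCm38.p6), at chr4:136886151-136886450 and chr4:136892865-136893164, both on the minus strand. Capitals mark GGAAGT, a core recognised by ETS factors, searched on both strands and found here as ACTTCC.
C1qb: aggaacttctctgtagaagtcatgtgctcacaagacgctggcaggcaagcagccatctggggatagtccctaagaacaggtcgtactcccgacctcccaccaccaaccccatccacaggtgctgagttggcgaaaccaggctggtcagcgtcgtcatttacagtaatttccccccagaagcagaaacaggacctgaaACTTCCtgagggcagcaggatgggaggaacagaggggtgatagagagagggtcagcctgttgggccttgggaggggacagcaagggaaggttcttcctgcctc
C1qc: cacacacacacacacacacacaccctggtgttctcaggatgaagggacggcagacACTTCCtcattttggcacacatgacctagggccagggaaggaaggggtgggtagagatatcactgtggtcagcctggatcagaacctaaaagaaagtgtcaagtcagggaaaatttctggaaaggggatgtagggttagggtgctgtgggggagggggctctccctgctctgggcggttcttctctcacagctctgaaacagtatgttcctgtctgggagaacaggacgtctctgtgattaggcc
GGAAGT was present in 23.8% of the 32851 promoters in the table, and in 8 of the 30 listed genes with a promoter there. It occurred in 3 of 7 such genes higher in mesenchymal cells and in 4 of 22 lower ones. A match describes letters in this window and is not a binding site.

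Mbl1 and Mbl2 encode the mannose-binding lectins, which recognise microbial sugars and start the lectin pathway, and both were lower in mesenchymal cells. Mbl1 had levels of 6.25, 6.41 and 6.19 in mesenchymal cells of vehicle mice, against 11.80, 11.37 and 11.36 in hepatocytes, a difference of -5.22 (SE 0.24, adjusted p = 2.75e-09 in limma). Mbl2 had 6.97, 7.61 and 7.24 in mesenchymal cells, against 12.93, 12.77 and 12.71 in hepatocytes, a difference of -5.53 (SE 0.28, adjusted p = 5.59e-09 in limma). In phenobarbital mice the differences were -4.85 and -5.14. The lectins were thus far above the filter level in hepatocytes, while the lectin Mbl1 was under it in all mesenchymal arrays of vehicle mice.

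The proteases that the lectins carry did not follow one direction. Masp2, which cleaves C4 and C2, was lower in mesenchymal cells by its main probe set (difference -4.46, SE 0.18, adjusted p = 1.04e-09 in limma) and by its second (-5.19). Masp1 has 5 probe sets, and they disagreed. As background, Masp1 gives the proteases MASP-1 and MASP-3 and the protein MAp44 by alternative splicing. Probe set 1438602_s_at, the brightest and the one used, had 10.78, 11.34 and 11.66 in mesenchymal cells of vehicle mice, against 8.07, 7.70 and 7.64 in hepatocytes. Probe set 1419677_at had 5.29, 6.33 and 6.15 in mesenchymal cells, against 11.46, 11.57 and 11.52 in hepatocytes. The same gene symbol therefore stood for a signal 3.46 higher (SE 0.21, adjusted p = 2.28e-08 in limma) by one probe set and one 5.59 log2 units lower in mesenchymal cells by another (difference -5.59, SE 0.30, adjusted p = 7.09e-09 in limma). Probe sets 1425985_s_at and 1438603_x_at gave 3.46 and 2.00, and 1455346_at lay under the filter level in all 12 arrays. In phenobarbital mice 1438602_s_at gave 3.65 and 1419677_at gave -5.21. Which transcript each probe set reads was not tested.

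**Figure D3:**
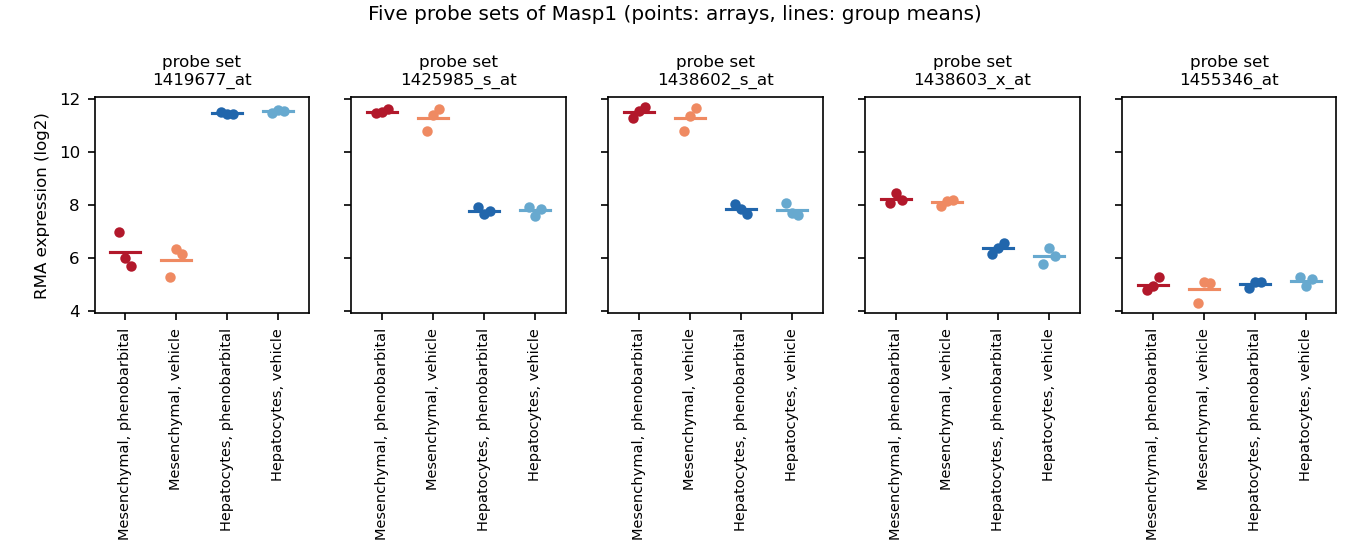
Log2 level (vertical axis) of the 5 probe sets of Masp1 in the 4 groups, with a point for each array and a line at each group mean. Probe set 1419677_at is high in hepatocytes and low in mesenchymal cells, and 1425985_s_at and 1438602_s_at show the opposite.

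Genes around the C3 convertase, the enzyme complex that amplifies complement, were mostly lower in mesenchymal cells, with 4 of 5 measured lower and 1 higher. The exception was Cfp, which encodes properdin, the protein that stabilises the alternative convertase. Cfp had 13.14, 12.96 and 12.78 in mesenchymal cells of vehicle mice, against 6.94, 7.12 and 7.01 in hepatocytes, a difference of 5.93 (SE 0.12, adjusted p = 7.23e-12 in limma). Cfi, the protease that inactivates C3b and C4b, had 8.37, 9.30 and 8.81 in mesenchymal cells, against 13.79, 13.67 and 13.61 in hepatocytes (difference -4.86, SE 0.26, adjusted p = 9.64e-09 in limma). Serping1, the C1 inhibitor, had 8.69, 9.40 and 9.27 in mesenchymal cells, against 13.40, 13.44 and 13.29 in hepatocytes (difference -4.26, SE 0.18, adjusted p = 1.14e-09 in limma). Groups did not overlap in any of these 3 genes, nor in 84.4% of all genes tested in vehicle mice.

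C2 and Cfb, neighbours on chromosome 17, encode the protease subunits of the classical and the alternative convertase. They had smaller differences than Cfi and Serping1. C2 had 10.16, 9.98 and 9.82 in mesenchymal cells of vehicle mice, against 11.15, 11.21 and 11.07 in hepatocytes (difference -1.16, SE 0.17). Cfb had 9.71, 9.59 and 9.45 in mesenchymal cells, against 12.79, 12.77 and 12.62 in hepatocytes (difference -3.14, SE 0.25). In phenobarbital mice the differences were -0.96 and -2.48. Mesenchymal array 2 of the phenobarbital mice was the highest mesenchymal array for both genes, at 10.57 for C2 and 10.88 for Cfb. The same array had a mean neutrophil marker level of 9.68 over 4 genes, where the other mesenchymal arrays lay between 6.20 and 7.91. The part of this in the 2 genes was not tested.

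Terminal complement, which builds the membrane attack complex, had 3 genes lower and 1 higher in mesenchymal cells. C8b, a chain of C8, had 7.08, 7.23 and 7.0 in mesenchymal cells of vehicle mice, against 12.37, 12.08 and 12.02 in hepatocytes, a difference of -5.06 (SE 0.18, adjusted p = 3.99e-10 in limma). C9, the pore-forming subunit, had 8.48, 9.21 and 8.80 in mesenchymal cells, against 14.19, 13.98 and 13.87 in hepatocytes, a difference of -5.18 (SE 0.21, adjusted p = 1.15e-09 in limma). C8a, which is next to C8b on chromosome 4, had a difference of -5.03. C6, which joins the complex before C8, went the other way with 12.64, 12.32 and 12.29 in mesenchymal cells, against 11.78, 11.44 and 11.60 in hepatocytes. It was high in both populations, and its difference of 0.81 (SE 0.18, adjusted p = 0.00112 in limma) was the smallest among the genes higher in mesenchymal cells. In phenobarbital mice the difference in C6 was 1.44 (SE 0.18, adjusted p = 1.13e-05 in limma).

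Clotting factors were the most one-sided of the larger groups, with 9 of 10 lower in mesenchymal cells. Over all genes tested in vehicle mice 40.7% were lower and 42.0% higher. F11, factor XI, and F9, factor IX, act in succession in the intrinsic pathway. F11 had 4.53, 5.31 and 4.77 in mesenchymal cells of vehicle mice, against 10.58, 10.64 and 10.75 in hepatocytes (difference -5.79, SE 0.17, adjusted p = 9.59e-11 in limma). F9 had 6.26, 6.77 and 6.46 in mesenchymal cells, against 12.29, 12.19 and 12.07 in hepatocytes (difference -5.69, SE 0.24, adjusted p = 1.34e-09 in limma). F11 lay under the filter level in all 6 mesenchymal arrays and F9 in 3 of them, so the sizes of these differences are uncertain and give no order. F12 and Klkb1, the contact-phase protease factor XII and prekallikrein, had differences of -5.67 and -5.48. F5, F2, F10 and F7, which encode factor V, prothrombin, factor X and factor VII, had differences of -5.41, -4.91, -4.89 and -4.76. F3, tissue factor, which starts clotting outside the vessel, had -1.71, but its levels were low, between 4.42 and 5.21 in mesenchymal arrays and between 5.99 and 7.20 in hepatocyte arrays.

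F8 was the clotting factor on the other side. It encodes factor VIII, the cofactor of factor IX that is lacking in haemophilia A. F8 had 12.13, 12.41 and 12.63 in mesenchymal cells of vehicle mice, against 6.97, 6.60 and 6.99 in hepatocytes, a difference of 5.53 (SE 0.22, adjusted p = 7.72e-10 in limma). In phenobarbital mice it was 5.92. Vwf encodes von Willebrand factor, the carrier of factor VIII, and had 7.36, 7.37 and 7.44 in mesenchymal cells, against 4.41, 4.77 and 4.86 in hepatocytes. Its difference was 2.71 (SE 0.15, adjusted p = 8.58e-09 in limma). Vwf was under the filter level in all 6 hepatocyte arrays and entered the test only through mesenchymal arrays. The size of its difference is therefore uncertain, and its passing gives no separate support. Factors VIII and IX, which work as a pair, thus lay on opposite sides.

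The 3 fibrinogen chains Fga, Fgb and Fgg, neighbours on chromosome 3, were lower in mesenchymal cells. Fga had 9.47, 9.73 and 9.04 in mesenchymal cells of vehicle mice, against 13.86, 13.77 and 13.71 in hepatocytes, a difference of -4.37 (SE 0.20, adjusted p = 2.89e-09 in limma). Fgb and Fgg had differences of -4.31 and -3.91. All 3 chains passed in limma, where 40.7% of all genes tested in vehicle mice passed as lower and 82.7% either way. F13b, the carrier subunit of factor XIII, had 5.35, 6.67 and 6.30 in mesenchymal cells, against 12.17, 12.18 and 12.21 in hepatocytes (difference -6.08, SE 0.37, adjusted p = 2.29e-08 in limma). Only 2 of its 6 mesenchymal arrays exceeded the filter level, so the size of this difference is uncertain. F13a1, the catalytic subunit that cross-links fibrin, was low everywhere and not tested. Its levels in mesenchymal cells were 5.38, 6.71 and 5.40 in phenobarbital mice, against 6.55, 5.46 and 5.02 in vehicle mice, and the hepatocyte arrays lay between 4.92 and 5.63.

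The fibrinogen promoters are shown because these neighbours were all lower in mesenchymal cells. They cover the same window from RefSeq (GRCm38.p6), at chr3:83025903-83026202 on the plus strand for Fga, chr3:83049814-83050113 on the minus strand for Fgb and chr3:83007474-83007773 on the plus strand for Fgg. Capitals mark GTTAAT, 1 arm of the palindrome bound by HNF1, read as ATTAAC on the other strand. They also mark CTGGGA, the core of interleukin-6 response elements, read as TCCCAG.
Fga: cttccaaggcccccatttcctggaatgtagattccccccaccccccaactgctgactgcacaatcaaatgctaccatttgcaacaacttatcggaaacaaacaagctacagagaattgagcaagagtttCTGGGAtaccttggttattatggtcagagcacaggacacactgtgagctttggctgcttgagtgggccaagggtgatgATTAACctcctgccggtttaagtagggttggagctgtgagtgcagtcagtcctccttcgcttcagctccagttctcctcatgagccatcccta
Fgb: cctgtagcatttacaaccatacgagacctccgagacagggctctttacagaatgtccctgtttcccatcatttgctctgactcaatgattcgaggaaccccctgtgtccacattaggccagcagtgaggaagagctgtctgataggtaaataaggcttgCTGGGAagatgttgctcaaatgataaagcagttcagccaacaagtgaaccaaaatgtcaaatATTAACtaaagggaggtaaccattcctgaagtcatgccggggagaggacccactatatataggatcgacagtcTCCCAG
Fgg: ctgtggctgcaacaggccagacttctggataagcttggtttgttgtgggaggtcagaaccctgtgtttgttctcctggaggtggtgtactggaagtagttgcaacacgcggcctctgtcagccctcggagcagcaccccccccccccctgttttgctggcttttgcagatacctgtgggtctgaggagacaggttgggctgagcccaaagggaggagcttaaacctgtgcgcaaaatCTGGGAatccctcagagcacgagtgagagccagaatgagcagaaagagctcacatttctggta
GTTAAT was present in Fga and Fgb and not in this window of Fgg, in 7 of the 30 listed genes with a promoter, and in 7.10% of all promoters in the table. It occurred in 6 of 22 genes lower in mesenchymal cells and in 1 of 7 higher ones. CTGGGA was present in all 3 fibrinogen promoters, in 17 of the 30 and in 31.8% of all promoters. It occurred in 11 of 22 lower and 5 of 7 higher genes.

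Anticoagulants were split evenly, with 3 higher and 3 lower in mesenchymal cells. Thbd, thrombomodulin, is the endothelial receptor that turns thrombin towards protein C. It had 10.57, 10.20 and 10.45 in mesenchymal cells of vehicle mice, against 5.16, 4.73 and 5.16 in hepatocytes (difference 5.39, SE 0.19, adjusted p = 3.98e-10 in limma). Tfpi, which blocks tissue factor with factor VII, had 11.78, 11.73 and 11.84 in mesenchymal cells, against 7.06, 7.16 and 7.42 in hepatocytes (difference 4.57, SE 0.15, adjusted p = 2.56e-10 in limma). Pros1, protein S, the cofactor of protein C, had 11, 11.51 and 11.52 in mesenchymal cells, against 9.54, 9.57 and 9.32 in hepatocytes (difference 1.87, SE 0.15, adjusted p = 2.12e-07 in limma). Pros1 was well above the filter level in both populations, while Thbd was under it in all 6 hepatocyte arrays. Thbd thus entered the test only through mesenchymal arrays. The size of its difference is uncertain, and its passing gives no separate support.

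The anticoagulants lower in mesenchymal cells were Proc, Serpind1 and Serpinc1. Proc, protein C itself, had 6.89, 7.96 and 7.35 in mesenchymal cells of vehicle mice, against 12.65, 12.61 and 12.63 in hepatocytes (difference -5.23, SE 0.29, adjusted p = 1.21e-08 in limma). Serpind1, heparin cofactor II, had 7.35, 7.92 and 7.91 in mesenchymal cells, against 12.83, 12.83 and 12.80 in hepatocytes (difference -5.09, SE 0.25, adjusted p = 4.12e-09 in limma). Serpinc1, antithrombin, had a difference of -4.27. The protein C pathway was thus divided, with the protease lower and its receptor partner Thbd and cofactor Pros1 higher in mesenchymal cells.

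Both measured genes of fibrinolysis were lower in mesenchymal cells. Plg, plasminogen, the precursor of the enzyme that dissolves fibrin, had 9.03, 10.09 and 9.86 in mesenchymal cells of vehicle mice, against 14.17, 14.12 and 14.13 in hepatocytes (difference -4.48, SE 0.30, adjusted p = 5.06e-08 in limma). Serpinf2, the main plasmin inhibitor, had 7.60, 8.41 and 8.16 in mesenchymal cells, against 13.11, 12.88 and 12.86 in hepatocytes (difference -4.90, SE 0.25, adjusted p = 4.99e-09 in limma). The enzyme and its inhibitor shared their direction.

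Of 72 further complement and coagulation genes listed, 50 were measured and 42 tested, and in vehicle mice 18 were higher in mesenchymal cells, 22 lower and 2 did not pass. The median difference of the 42 was -1.45, and over all genes 42.0% were higher and 40.7% lower. Vsig4, a complement receptor of Kupffer cells, was higher by 8.54, and Itgb2, the shared beta chain of the integrin complement receptors, and Fcna, ficolin A, each by 7.17. Proz, protein Z, and Cpn2, a subunit of carboxypeptidase N, had differences of -5.87 and -5.63. Proz exceeded the filter level in 3 of 6 mesenchymal arrays and Cpn2 in 2, and Vsig4 and Itgb2 exceeded it in 0 of 6 hepatocyte arrays. The sizes of these 4 differences are therefore uncertain.

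Levels of the 28 lower genes in mesenchymal cells were then set against those of hepatocyte markers. The linear signal of each mesenchymal array was expressed as a percentage of the hepatocyte mean under the same treatment. The median over the 28 genes was 6.09%, 4.45% and 3.40% in the 3 arrays of phenobarbital mice, against 2.55%, 4.10% and 3.42% in those of vehicle mice. For the 18 hepatocyte markers it was 11.3%, 5.59% and 4.64% in phenobarbital mice, against 3.02%, 5.45% and 5.07% in vehicle mice. The arrays thus ran in a similar order for both sets of genes: array 1 of the phenobarbital mice was highest for 23 of the 28 genes and for 18 of 18 markers, and array 1 of the vehicle mice lowest for 19 and for 18. Hepatocyte RNA in the mesenchymal arrays and transcription of these genes by mesenchymal cells cannot be told apart by these values.

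The 28 genes ranged from 2.48% (F13b) to 52.8% (C2) in phenobarbital mice, against 1.58% (F13b) to 45.0% (C2) in vehicle mice. Of these genes 2 exceeded the filter level in no mesenchymal array and 8, F13b among them, in 1 to 5. Their percentages, and so the low end of the range, are uncertain. The markers had a range of 3.20% to 53.8% in phenobarbital mice, against 1.94% to 46.5% in vehicle mice, with Alb, the gene of albumin, at the top. Alb had hepatocyte means of 15.02 in phenobarbital mice and 15.04 in vehicle mice, near the top of the measured range (15.16). Its percentage is therefore uncertain and sets no bound for C2, whose hepatocyte means were 11.06 and 11.15. C2 averaged 52.8% ± 16.1 in phenobarbital mice and 45.0% ± 5.31 in vehicle mice (SD, n = 3 each). Cfb had 14.8%, 31.0% and 12.6% in arrays of phenobarbital mice, against 12.4%, 11.4% and 10.3% in vehicle mice. F3 averaged 28.6% ± 5.59 in phenobarbital mice and 31.0% ± 6.51 in vehicle mice (SD, n = 3 each). C2 and Cfb had higher mean percentages than the other genes measured above the filter level. For F3 the percentage has no such meaning, since all 6 mesenchymal arrays were under that level (4.42 to 5.21) and the hepatocyte arrays close to it.

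**Figure D4:**
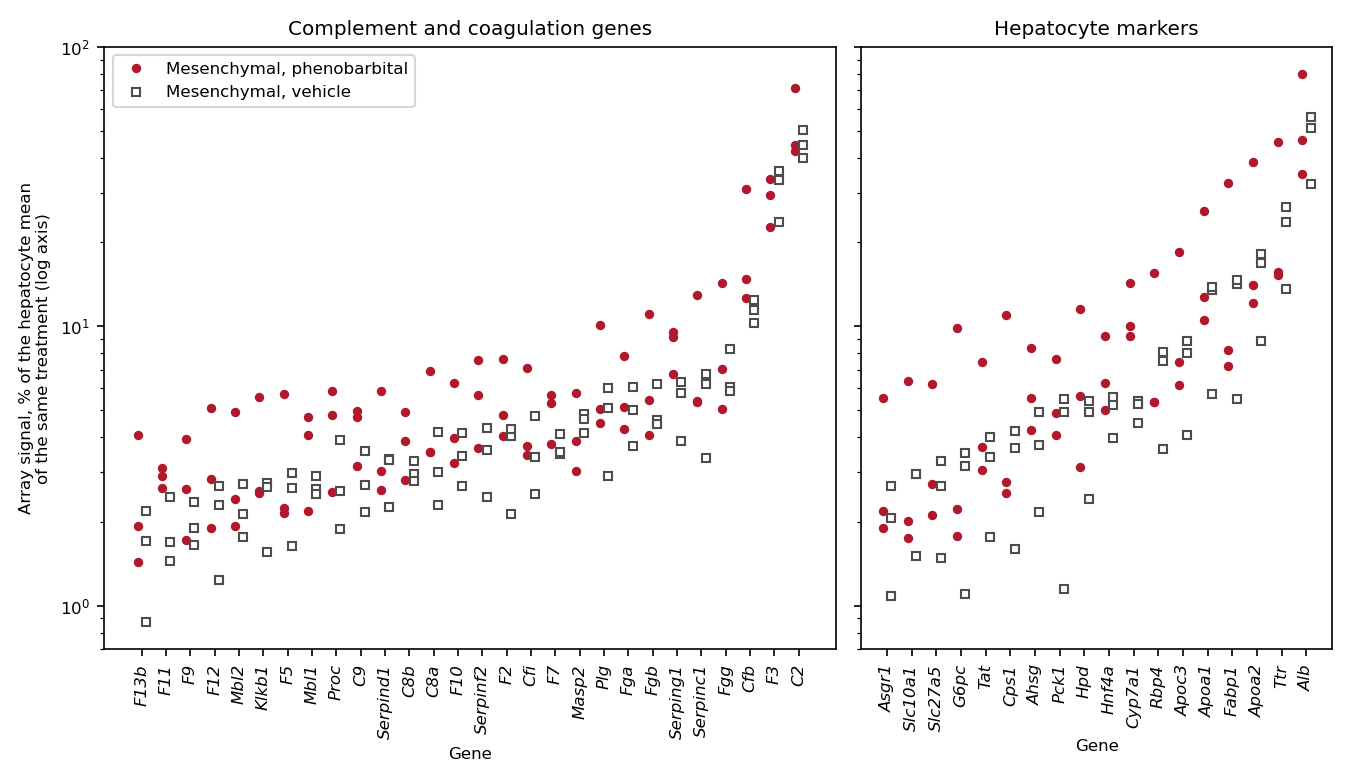
Signal of each mesenchymal array as a percentage of the hepatocyte mean of the same treatment (vertical log axis), for the 28 genes lower in mesenchymal cells (left) and 18 hepatocyte markers (right). Filled points are phenobarbital mice and open squares vehicle mice. C2, F3 and Cfb stand at the right end of the first panel with means of 52.8%, 28.6% and 19.5% in phenobarbital mice, F3 from levels under the filter in mesenchymal cells.

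Phenobarbital changed none of these genes past the threshold in hepatocytes. Of 35 tested, 0 passed in limma, where 0.0493% of all 8117 genes tested did (4 genes). At an unadjusted p under 0.05 there were 2 of the 35, C6 and C9, against 8.38% of all genes. The tested genes had 13 positive and 22 negative differences, and the median over all 40 measured was -0.09. Over all genes tested 49.0% were positive, with a median of -0.0. Groups did not overlap in 2 of the 35, C6 and Fga, against 15.1% of all genes. C1qb, C1qc, Thbd, Vwf and F13a1 were under the filter in hepatocytes and not tested.

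C6 had the smallest p of the 35. Its levels in hepatocytes were 10.95, 10.88 and 11.06 in phenobarbital mice, against 11.78, 11.44 and 11.60 in vehicle mice. All phenobarbital arrays were lower than all vehicle arrays. The difference was -0.64 (SE 0.10, unadjusted p = 0.000314), and it missed the threshold after adjustment over all genes (adjusted p = 0.17 in limma, 0.146 to 0.581 under the alternatives). The other terminal genes also had negative differences that did not pass, -0.34 for C9, -0.28 for C8a and -0.27 for C8b. C9 had 13.56, 13.47 and 13.99 in phenobarbital mice, against 14.19, 13.98 and 13.87 in vehicle mice (unadjusted p = 0.0468, adjusted p = 0.592 in limma). The groups overlapped in C9 through array 3 of the phenobarbital mice.

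Fga, the third of the genes with a negative difference and a small p, had 13.69, 13.59 and 13.65 in hepatocytes of phenobarbital mice, against 13.86, 13.77 and 13.71 in vehicle mice (difference -0.14, SE 0.06, adjusted p = 0.593 in limma). On the positive side, F13b had 12.20, 12.34 and 12.46 in phenobarbital mice, against 12.17, 12.18 and 12.21 in vehicle mice (difference 0.15, SE 0.08, adjusted p = 0.657 in limma). Tfpi had 7.89, 7.20 and 7.52 in phenobarbital mice, against 7.06, 7.16 and 7.42 in vehicle mice (difference 0.33, SE 0.18, adjusted p = 0.665 in limma). Without array 1 of the phenobarbital mice the Tfpi difference was 0.15. Its further probe sets, under the filter level in hepatocytes, gave -0.44 (1451791_at) and 0.12 (1452432_at). Mbl2 had 12.80, 13 and 13.07 in phenobarbital mice, against 12.93, 12.77 and 12.71 in vehicle mice (difference 0.15, SE 0.09, adjusted p = 0.686 in limma). Groups overlapped in F13b, Tfpi and Mbl2. The clotting factors had 5 positive and 5 negative differences. Those furthest from 0, -0.32 for F8 and 0.27 for F3, depended on single arrays at low levels: F8 was -0.04 without array 2 of the phenobarbital mice, and F3 ran from 0.02 without array 1 of the vehicle mice to 0.62 without array 2.

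Several of these genes, the fibrinogen chains among them, are known as acute phase genes of the liver. A list of 21 other acute phase genes had mean levels of 11.02, 11.06 and 11.77 in hepatocytes of phenobarbital mice, against 12.04, 12.23 and 11.71 in vehicle mice. Of these, 18 had negative differences and 0 passed in limma. The third phenobarbital array lay within the vehicle range there, as it did for C9. The part of this list's shift in the complement genes was not tested. Of the further complement and coagulation genes, 33 were tested in hepatocytes and 0 passed in limma.

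**Figure D5:**
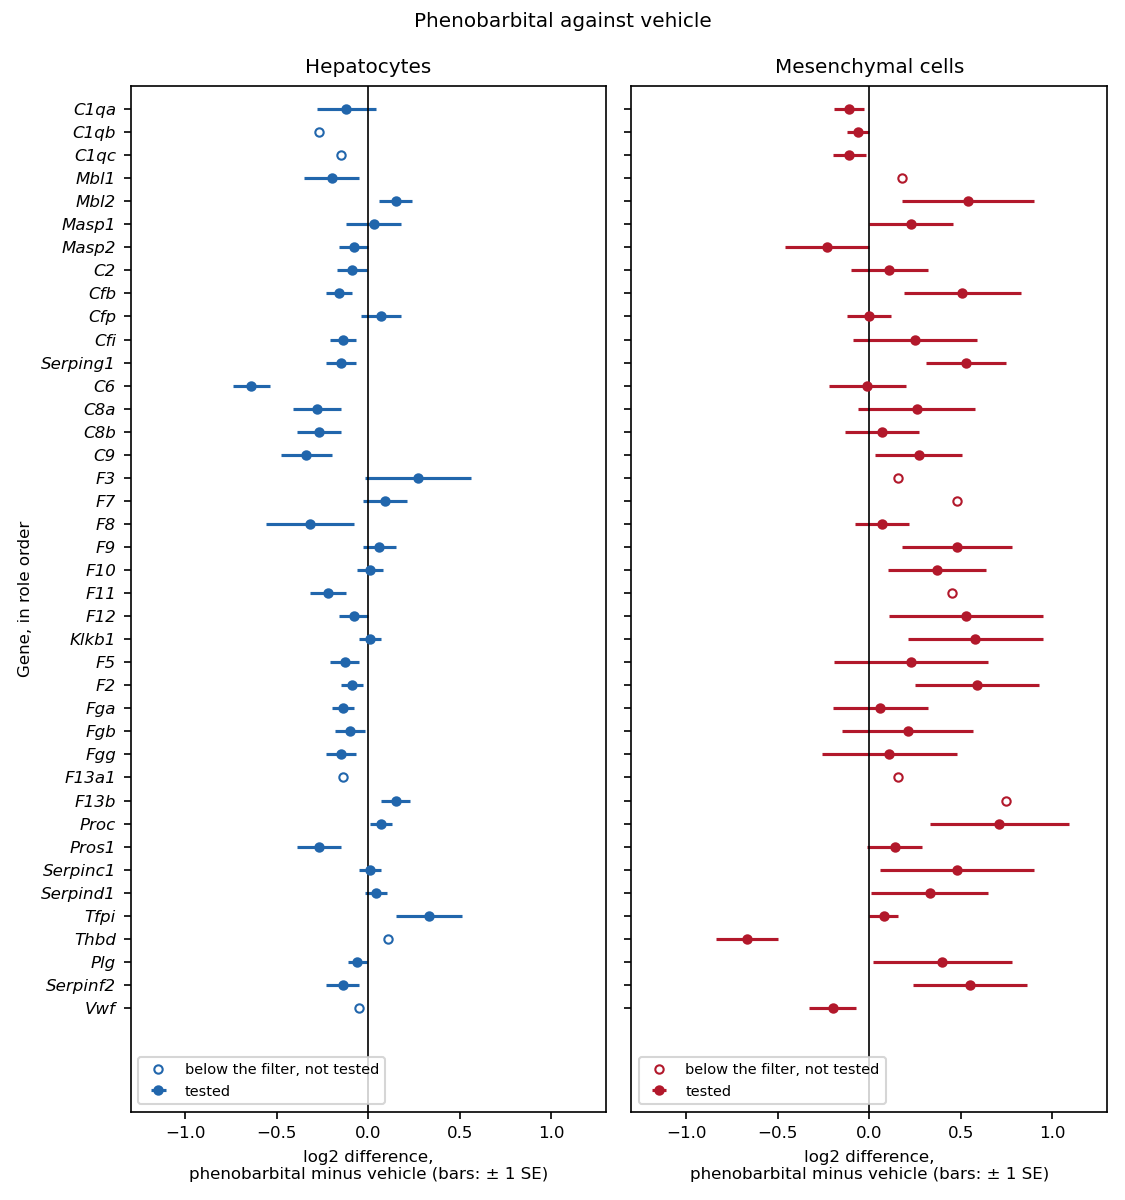
The log2 difference of phenobarbital minus vehicle (horizontal axis) for the 40 measured genes in hepatocytes (left) and mesenchymal cells (right), with bars of 1 standard error for tested genes. Open points were under the filter and not tested. C6 stands apart at -0.64 in hepatocytes and Thbd at -0.67 in mesenchymal cells, and the bars are wider in mesenchymal cells for most hepatocyte-high genes.

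In mesenchymal cells phenobarbital also changed none of these genes past the threshold. Of 34 tested, 0 passed in limma, as for 0.0% of all 8003 genes tested. At an unadjusted p under 0.05 there were 2, Thbd and Serping1, against 2.90% of all genes. Groups did not overlap in 1 of the 34, Thbd, against 7.70% of all genes. The tested genes had 27 positive and 7 negative differences, and the median over the 40 was 0.23. Over all genes tested 51.8% were positive, with a median of 0.0.

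Thbd had levels of 9.54, 9.59 and 10.10 in mesenchymal cells of phenobarbital mice, against 10.57, 10.20 and 10.45 in vehicle mice. All phenobarbital arrays were lower, by a narrow margin at the nearest pair. The difference was -0.67 (SE 0.17, unadjusted p = 0.00754, adjusted p = 0.998 in limma). Vwf had 6.99, 7.46 and 7.13 in phenobarbital mice, against 7.36, 7.37 and 7.44 in vehicle mice (difference -0.20, SE 0.13, adjusted p = 0.998 in limma). C1qa had 14.18, 14.33 and 14.27 in phenobarbital mice, against 14.51, 14.37 and 14.24 in vehicle mice (difference -0.11, SE 0.08, adjusted p = 0.998 in limma). Groups overlapped in Vwf and C1qa. The other genes higher in mesenchymal cells had differences of 0.23 (Masp1), 0.14 (Pros1), 0.08 (Tfpi), 0.07 (F8), 0.00 (Cfp), -0.01 (C6), -0.06 (C1qb) and -0.11 (C1qc), and none passed in limma.

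On the positive side Serping1 had 9.77, 9.84 and 9.33 in mesenchymal cells of phenobarbital mice, against 8.69, 9.40 and 9.27 in vehicle mice (difference 0.53, SE 0.22, unadjusted p = 0.0494, adjusted p = 0.998 in limma). Proc had 8.61, 8.32 and 7.40 in phenobarbital mice, against 6.89, 7.96 and 7.35 in vehicle mice (difference 0.71, SE 0.38, adjusted p = 0.998 in limma). Serpinf2 had 9.09, 8.68 and 8.05 in phenobarbital mice, against 7.60, 8.41 and 8.16 in vehicle mice (difference 0.55, SE 0.31, adjusted p = 0.998 in limma). All 3 are hepatocyte-high genes whose groups overlapped, with array 1 of the vehicle mice lowest.

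The positive side was carried by the 28 hepatocyte-high genes, of which 27 had a positive difference (median 0.39). All 18 measured hepatocyte markers were positive as well (median 0.50). Without array 1 of the phenobarbital mice, 18 of the 28 genes and 10 of the 18 markers were positive, with medians of 0.12 and 0.03. The median over all 40 genes was then 0.08. Without array 1 of the vehicle mice the medians were 0.20 for the 28 genes and 0.12 for the markers. The mean level of the hepatocyte markers was 10.80, 9.52 and 9.33 in mesenchymal arrays of phenobarbital mice, against 8.71, 9.84 and 9.73 in those of vehicle mice. Without array 2 of the phenobarbital mice the difference was 0.12 in place of 0.51 for Cfb and -0.13 in place of 0.11 for C2. The part of hepatocyte RNA in these differences was not tested.

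The difference between the populations in the phenobarbital effect was tested directly, as the hepatocyte effect minus the mesenchymal effect. Of 39 genes tested 0 passed in limma, as for 0.0% of all 9031 genes tested. At an unadjusted p under 0.05 there were 4, against 5.45% of all genes: Thbd, F11, Serping1 and C6. Thbd was under the filter in all 6 hepatocyte arrays and F11 in all 6 mesenchymal arrays, so each entered this fit through 1 population only. Of the 39, 33 were negative and 6 positive, with a median of -0.38, against 52.8% negative and a median of -0.01 over all genes tested. All 18 hepatocyte markers were negative too (median -0.53), and without array 1 of the phenobarbital mesenchymal cells the median over the 40 genes was -0.15.

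Thbd had an effect of 0.11 in hepatocytes, where it was under the filter, and -0.67 in mesenchymal cells, a difference of 0.78 (SE 0.27, adjusted p = 0.87 in limma) that sets a level above the filter against one under it. C6 had an effect of -0.64 in hepatocytes and -0.01 in mesenchymal cells, a difference of -0.63 (SE 0.25, adjusted p = 0.883 in limma). F11 had -0.22 in hepatocytes and 0.45 in mesenchymal cells, where its levels were under the filter (difference -0.67, SE 0.24, adjusted p = 0.87 in limma). Serping1 had -0.15 in hepatocytes and 0.53 in mesenchymal cells (difference -0.68, SE 0.25, adjusted p = 0.871 in limma). Tfpi and Vwf were the next positive genes by p, with differences of 0.24 (SE 0.22) and 0.14 (SE 0.21). A separate response of any one of these genes in the 2 populations was not detectable with 3 arrays a group.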

How the data were processed

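Total RNA of isolated mouse hepatocytes and mesenchymal cells was labelled with an Affymetrix 3′ kit and hybridised to 12 arrays, per the labels' protocols. The authors deposited log2 expression values made with RMA, per the submitters' processing notes, with version and software not given in the sources used here. RMA is meant to bring all arrays to a common distribution, but the deposited values did not share one. The 40th percentile was 6.54 to 6.60 in hepatocyte arrays and 6.64 to 6.68 in mesenchymal arrays. Differences were taken on these values without further scaling, except where median centring is named. Arrays of a group correlated at 0.989 to 0.996, no 2 were identical, array medians were 7.19 to 7.44, and precision is limited by the 3 arrays of each group. No scan date or batch is given.

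Of 22626 probe sets, 20380 had 1 gene symbol in the platform annotation, 691 several and 1555 none, and 20351 matched the RefSeq gene table with no symbol changed. The single-symbol probe set with the highest mean stood for each gene. Tests used limma 3.58.1 in R 4.3.3 (lmFit, eBayes with an intensity trend), with Benjamini-Hochberg adjustment over all genes tested, and were checked on simulated data. Phenobarbital was compared with vehicle on the 6 arrays of a population. Population differences and the difference of effects used all 12 arrays. Promoters came from RefSeq (GRCm38.p6).

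The members, gene lists and comparisons were chosen with earlier results of these data known, and no list was tested as a set. Single array values are given for each gene higher in mesenchymal cells, the 2 widest lower genes of each role, the 3 genes of each sign with the smallest p in each phenobarbital comparison, and Masp1 for its opposed probe sets. C2, Cfb, F13a1 and Cyp2b10 were named beside them, the first 3 after their values were seen. Replicate numbers are shared by the groups, and the labels do not say that they mark animals. In vehicle mice the deviations of same-numbered hepatocyte and mesenchymal arrays from their group means correlated at 0.192, 0.159 and 0.148. Other pairs of groups ran from -0.227 to 0.167. The value of 0.167 was between array 3 of the 2 mesenchymal groups, which came from different mice. Each vehicle hepatocyte array correlated highest with the mesenchymal array of its own number. In phenobarbital mice this held for array 1 and not for arrays 2 and 3. It also held for the array 3 pair from different mice. Dbp, a clock output gene, was low in array 1 of both vehicle populations, at 6.52 in mesenchymal cells and 6.21 in hepatocytes. The labels name no animals, so pairing by animal is not established. The alternatives were other filters, the mean of probe sets, median centring, no intensity trend, array subsets and a replicate block.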

Additional observations from a re-analysis of the deposited data

How the results depend on the processing

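Over all alternatives run, 37 to 39 members differed between the populations under each treatment and 0 passed in both phenobarbital comparisons and their difference. Where fewer than 39 passed, fewer were tested, and every one tested passed. With the replicate block, 39 passed in each population comparison and 0 elsewhere, as without it, and no call changed. Centring arrays on their median moved all genes by -0.23 in phenobarbital mice and -0.22 in vehicle mice, and the members' median in phenobarbital mice to -4.33. Leaving out 1 array moved that median between -4.41 and -3.87, and the median difference of effects between -0.57 and -0.15. Tfpi reversed in the difference of effects, to -0.12 with the mean of its probe sets and to -0.66 with probe set 1451791_at, and Masp1 reversed with probe set 1419677_at, at -5.21 in phenobarbital mice and -5.59 in vehicle mice. The further probe sets were chosen after seeing the data, and the cause was not tested. Levels at or under the filter limit the sizes of differences and percentages. In mesenchymal cells F3 and F11 exceeded the filter level in 0 of 6 arrays, F13a1 in 1, and 8 lower genes (Mbl1, Masp2, F5, F7, F9, F12, F13b and Klkb1) in 2 to 5. In hepatocytes C1qb, Thbd and Vwf exceeded it in 0 arrays, C1qc in 1, C1qa and F3 in 4, and F8 in 5.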

Other observations

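Some values outside the comparisons bear on single arrays. Mesenchymal array 2 of the phenobarbital mice was the highest mesenchymal array for C6 (12.86), C2 (10.57), Cfb (10.88) and Serping1 (9.84). Saa3, an acute phase gene also made outside hepatocytes, had 11.80 in that array, where the other mesenchymal arrays lay between 6.61 and 7.77. S100a8, a neutrophil gene, had 11.07 there and between 7.01 and 9.53 in the others.

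Dbp, a clock output gene, had 6.52 in mesenchymal array 1 and 6.21 in hepatocyte array 1 of the vehicle mice, and between 11.60 and 12.15 in the other 10 arrays. The labels give no time of day. That mesenchymal array was also the lowest of the 6 for 19 of the 28 hepatocyte-high genes and for 18 of 18 hepatocyte markers. Among the 19 were Plg (9.03), F2 (8.14), Proc (6.89) and F13b (5.35). A relation of these levels to Dbp was not tested.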
